A study of Homo sapiens with 6 samples.

Results

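DNA methylation genes were examined in Kasumi-1, a human line of acute myeloid leukemia in which RUNX1 is fused to RUNX1T1 (AML1-ETO). The group holds 10 genes picked by symbol: DNMT1, DNMT3A, DNMT3B, UHRF1, TET1, TET2, TET3, IDH1, IDH2 and TDG. Their values set no rule for the choice, but earlier results of these data were known when it was made. All 10 were found among the 32364 genes of the deposited table, and all 10 were among the 18726 genes tested. The mRNA was sequenced in 6 libraries of this single cell line, 3 from cells that received the solvent control and 3 from cells incubated with 0.5 µM of the histone deacetylase (HDAC) inhibitor I13, all for 48 h. The labels number the samples 1 to 3 in each group and do not say whether they came from separate cultures, so the p-values measure only the spread between these samples. Expression is given as FPKM, the fragments on a gene per kilobase of its exons and scaled to the number of fragments mapped. Gene positions below are on GRCh38 and run over the whole gene in GENCODE release 29.

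Cytosine methylation at CpG dinucleotides is copied to the new DNA strand by DNMT1, which UHRF1 brings to half-methylated sites after replication. DNMT3A and DNMT3B place new marks. The TET dioxygenases oxidize 5-methylcytosine, and the DNA glycosylase TDG removes the oxidized bases so that base excision repair can insert plain cytosine. The TET enzymes need 2-oxoglutarate, which IDH1 in the cytosol and IDH2 in mitochondria make. DNMT3A, TET2, IDH1 and IDH2 are known as recurrent mutation targets in acute myeloid leukemia, and HDACs act together with methyl-CpG binding proteins at silenced promoters. Only mRNA levels were measured here, and neither DNA methylation nor protein.

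The sequence around the start sites of these genes is given to show which of them share an element. RefSeq windows on GRCh38.p14, from 250 bases before to 50 bases after a start, were at hand for all 10 genes (22 windows). A RefSeq start need not be the outermost start of the gene in GENCODE, and the starts shown for DNMT1 and UHRF1 lie 36333 and between 6421 and 7064 bases inside the annotated genes. E2F factors, which drive genes of DNA replication, bind sequences of the type TTTCGCGC, TTTGGCGC or TTTCCCGC. These letters, searched on both strands, occurred in 3 of the 22 windows, against 2.74% of the 35116 windows of all genes. The 3 windows belong to 2 of the 10 genes, DNMT1 and UHRF1. The 35116 windows belong to 27305 genes, so the 10 genes hold more windows per gene, and the share of all genes with a match was not computed. Their windows also had a higher median content of G and C, 68.2% against 58.7% over all windows. In the DNMT1 promoter (chr19:10194934-10195013, minus strand) the match begins 2 bases before the start. In UHRF1 (plus strand), matches begin 160 bases before the start of the second window (chr19:4909944-4910023) and 14 bases before the start of the first (chr19:4909421-4909500). The stretches are shown because they set this pair apart, with the match in capitals:
DNMT1: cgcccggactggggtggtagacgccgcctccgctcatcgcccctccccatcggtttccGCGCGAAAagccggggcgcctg
UHRF1, second window: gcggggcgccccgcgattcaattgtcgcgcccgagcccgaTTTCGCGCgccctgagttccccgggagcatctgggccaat
UHRF1, first window: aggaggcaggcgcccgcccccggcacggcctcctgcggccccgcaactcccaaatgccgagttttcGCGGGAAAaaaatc

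A match is a description of the letters and no proof of a bound factor. TTTCGCGC alone was found in 0.515% of all windows, TTTGGCGC in 0.652% and TTTCCCGC in 1.63%. Windows of the 10 genes held between 3 and 46 CpG dinucleotides, with a median of 24, against a median of 14 over all windows. The 6 DNMT3A windows held between 18 (above 55.5% of all windows) and 46 (above 97.1%). The lowest count was that of the DNMT3B window, whose start lies 17467 bases inside the annotated gene, so that it does not cover the 5′ end of DNMT3B. The last 100 bases before the start and the start base itself are shown for the most CpG-rich DNMT3A window, since DNMT3A is the gene the comparison turns on, with each CpG in capitals (chr2:25341925-25342025, minus strand). This start lies 665 bases inside the gene.
DNMT3A, second window: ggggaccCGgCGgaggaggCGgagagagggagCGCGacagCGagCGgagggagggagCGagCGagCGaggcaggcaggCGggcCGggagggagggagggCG

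All 10 genes were expressed in every library. The levels spanned a 48.8-fold range, from IDH2 with a mean of 144.5 FPKM, above 98.9% of the genes tested, to TET2 with 2.96 FPKM, above 54.5%. After IDH2 came DNMT1 (37.4 FPKM) and UHRF1 (33.8 FPKM), the maintenance pair, then TET3 (15.1 FPKM) and DNMT3A (12.0 FPKM). Next were TDG (11.5 FPKM), IDH1 (10.5 FPKM) and TET1 (9.47 FPKM), and last DNMT3B (5.45 FPKM) and TET2. Neighbours in this order whose values overlapped across the 6 libraries were DNMT1 with UHRF1, DNMT3A with TDG, TDG with IDH1, and IDH1 with TET1. Within a library the order was nevertheless mostly kept. DNMT1 was above UHRF1 in 6 of 6 libraries, TDG above IDH1 in 6 and IDH1 above TET1 in 5, while DNMT3A was above TDG in 3.

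**Figure D1:**
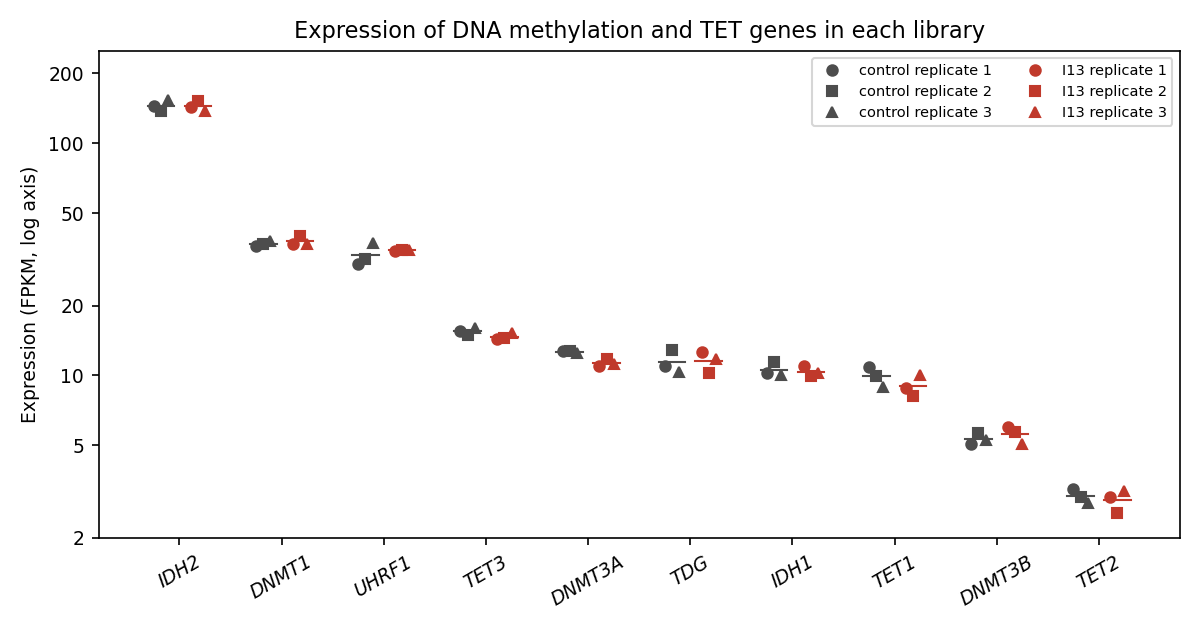
Expression of the 10 genes in FPKM (log axis), ordered by mean level, with 1 point per library (grey, control, and red, I13, with a symbol per replicate) and a line at each group mean. The groups overlap for every gene except DNMT3A, where the control libraries lie between 12.4 and 12.8 FPKM and the I13 libraries between 10.99 and 11.78 FPKM.

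The study compared I13 with control to find the genes whose mRNA differs under the inhibitor. Among the methylation genes, the groups of 9 genes overlapped, and DNMT3A was the exception, with all I13 values below all control values. No member reached the threshold of the study's methods. That threshold is a corrected p under 0.05 with a log2 fold change of 0.58 or more, taken here in either direction. By limma on log2(FPKM + 0.1) this threshold was met by 0 of the 18726 genes tested (0%), where 963 genes (5.14%) had an unadjusted p under 0.05, and by 4 genes with voom, which is limma's method for fragment counts (5 of 13814 genes, 0.0362%, without regard to fold). The legend of the study's heatmap gives a p under 0.05 without naming a correction. By limma, 445 genes (2.38%) had an unadjusted p under 0.05 with a log2 fold change of 0.58 or more in size. None of them was a member. Without regard to fold, 1 of the 10 members had an unadjusted p under 0.05. This was DNMT3A, which was lower, where 2.59% of all genes tested were lower at that p. Voom gave the same count of members, again DNMT3A alone (unadjusted p = 0.0261, adjusted p = 0.788), where 5.36% of genes passed in either direction, 2.8% lower and 2.56% higher. The log2 fold change was above 0 for 4 members and below 0 for 6, with a median of -0.017 against 0.0058 for all genes tested. Fold changes on this scale slightly understate those of genes with a low FPKM.

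The size of the differences was small for these genes, as for most genes of such levels. The absolute log2 fold change was under 0.2 for 10 of 10 members, for 66.7% of all genes tested and for 86.3% of the 11517 genes whose mean FPKM was 1 or more. The 95% interval lay within 0.58 of 0 for 10 of 10 members, against 85.7% of those 11517 genes. The intervals hold for the average over all cells of a culture. In a bulk sample, fewer cells that express a gene and less RNA per cell cannot be told apart.

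**Figure D2:**
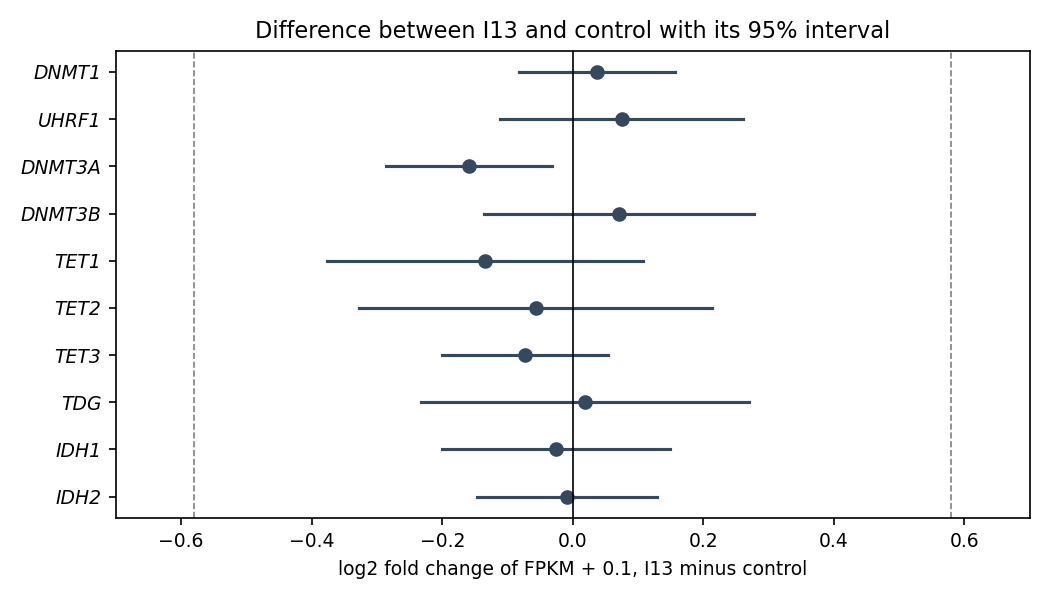
Log2 fold change of FPKM + 0.1 (I13 minus control, limma over 6 libraries) for each gene as a point, with its 95% interval as a bar. Dashed lines mark 0.58 on both sides of 0, which no interval reaches, and the interval of DNMT3A alone lies on one side of 0.

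DNMT1, the maintenance methyltransferase (ENSG00000130816, chromosome 19 from 10133345 to 10231286), had 36.2, 36.7 and 37.9 FPKM in control replicates 1, 2 and 3. In the I13 libraries it had 36.8, 39.9 and 37.0 FPKM, so that the groups overlapped and I13 replicate 2 alone stood above the control range. The I13 to control difference was 0.037 in log2 fold change (standard error 0.051, unadjusted p = 0.493), with a 95% interval from -0.083 to 0.16. Between 5533 and 6528 fragments per library stood behind it. Of its 9796 exon bases, 83 are shared with S1PR2 on the same strand, a gene with 56 to 79 fragments per library.

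UHRF1 (ENSG00000276043, chromosome 19 from 4903080 to 4962154), the partner that reads half-methylated DNA, had 30.2, 31.6 and 37.2 FPKM in the control libraries. The I13 libraries had 34.3, 34.8 and 34.7 FPKM, all within the control range. The coefficient of variation was 11.2% in control and 0.84% in I13 cells, beside a counting error of 1.87%. The log2 fold change of 0.075 had a standard error of 0.079 (unadjusted p = 0.372) and an interval from -0.11 to 0.26. Its size depended on single control libraries. It was 0.014 without control replicate 1 (unadjusted p = 0.861 by limma) and 0.047 without control replicate 2. Without control replicate 3, the highest value, it was 0.16 with an unadjusted p of 0.0131, in a fit in which 6.27% of all genes had an unadjusted p under 0.05, and the adjusted p over all alternatives lay between 0.65 and 1.0. The ratio of UHRF1 to DNMT1 within a library was 0.891 ± 0.0774 (SD, n = 3) in control and 0.914 ± 0.0368 (SD, n = 3) in I13 cells.

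DNMT3A (ENSG00000119772, chromosome 2 from 25227855 to 25342590) makes new methylation marks and is the de novo enzyme with the higher mRNA level in these cells. It had 12.71, 12.78 and 12.44 FPKM in control replicates 1, 2 and 3 and 10.99, 11.78 and 11.18 FPKM in I13 replicates 1, 2 and 3. The I13 values were thus all below the control values, as for 4.64% of all genes tested. In either direction the groups did not overlap for 9.52% of all genes, and for 9.65% of those with a mean FPKM from 1 up. The means were 12.6 ± 0.176 FPKM (SD, n = 3) and 11.3 ± 0.413 FPKM (SD, n = 3), a ratio of 0.895. Between 2054 and 2635 fragments per library gave a counting error of 2.05%, and the coefficients of variation were 1.39% in control and 3.65% in I13 cells. In limma the unadjusted p was 0.0216 and the adjusted p 0.893, for a log2 fold change of -0.16 with a standard error of 0.054 and a 95% interval from -0.29 to -0.031. Of the genes with a mean FPKM from 1 up, 5.32% had an unadjusted p under 0.05.

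The direction of DNMT3A held in 18 of 18 alternative analyses. Since its groups do not overlap, leaving out a library could not turn it, and this is no further observation. The log2 fold changes ran from -0.19 to -0.14, with unadjusted p-values from 0.00155 to 0.0764 and adjusted p-values from 0.12 to 1.0. The unadjusted p passed 0.05 upwards when any of 4 libraries was left out. By limma it was 0.0619 without control replicate 1, 0.0707 without control replicate 2, 0.0764 without I13 replicate 1 and 0.0629 without I13 replicate 3. With limma and a term for a library pair that is described below, it was 0.0116, in a fit in which 7.62% of all genes had an unadjusted p under 0.05. The lowest p-values, 0.00155 unadjusted and 0.12 adjusted, came from voom with that term. That fit was added after the values had been seen, and 10.3% of its genes had an unadjusted p under 0.05.

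DNMT3B (ENSG00000088305, chromosome 20 from 32762385 to 32809356), the second de novo enzyme, had 5.05, 5.64 and 5.25 FPKM in the control and 5.98, 5.71 and 5.09 FPKM in the I13 libraries. The groups overlapped, with I13 replicates 1 and 2 above the control range and replicate 3 inside it. DNMT3B differed by a log2 fold change of 0.070 that had a standard error of 0.088 (unadjusted p = 0.449, 95% interval from -0.14 to 0.28). It was 0.021 without I13 replicate 1 and 0.035 without control replicate 1, against 0.11 without control replicate 2 and 0.14 without I13 replicate 3. With 360 to 448 fragments per library it had the fewest fragments of the 10 genes and a counting error of 4.9%. DNMT3L, the catalytically inactive cofactor of the DNMT3 enzymes, had at most 1 fragment in any library and was not tested.

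Shares within the family do not depend on the scaling of a library. DNMT3A made up 23.6%, 23.2% and 22.4% of the summed FPKM of the 3 DNMT genes in the control libraries. In the I13 libraries its share was 20.4%, 20.5% and 21.0%, without overlap. DNMT1 made up 67.3% ± 0.813 (SD, n = 3) in control and 69.1% ± 0.602 (SD, n = 3) in I13 cells, also without overlap, and DNMT3B 9.68% ± 0.474 and 10.2% ± 0.813, with overlap. The ratio of DNMT3A to DNMT3B was 2.38 ± 0.126 in control and 2.03 ± 0.182 in I13 cells (SD, n = 3), without overlap. Each of these differences without overlap has an exact permutation p of 0.1, the smallest possible, and each contains the lower DNMT3A level and is no second observation of it. The summed FPKM of the DNMT genes was 54.9 ± 0.867 in control and 54.8 ± 2.28 in I13 cells (SD, n = 3, exact permutation p = 0.9).

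**Figure D3:**
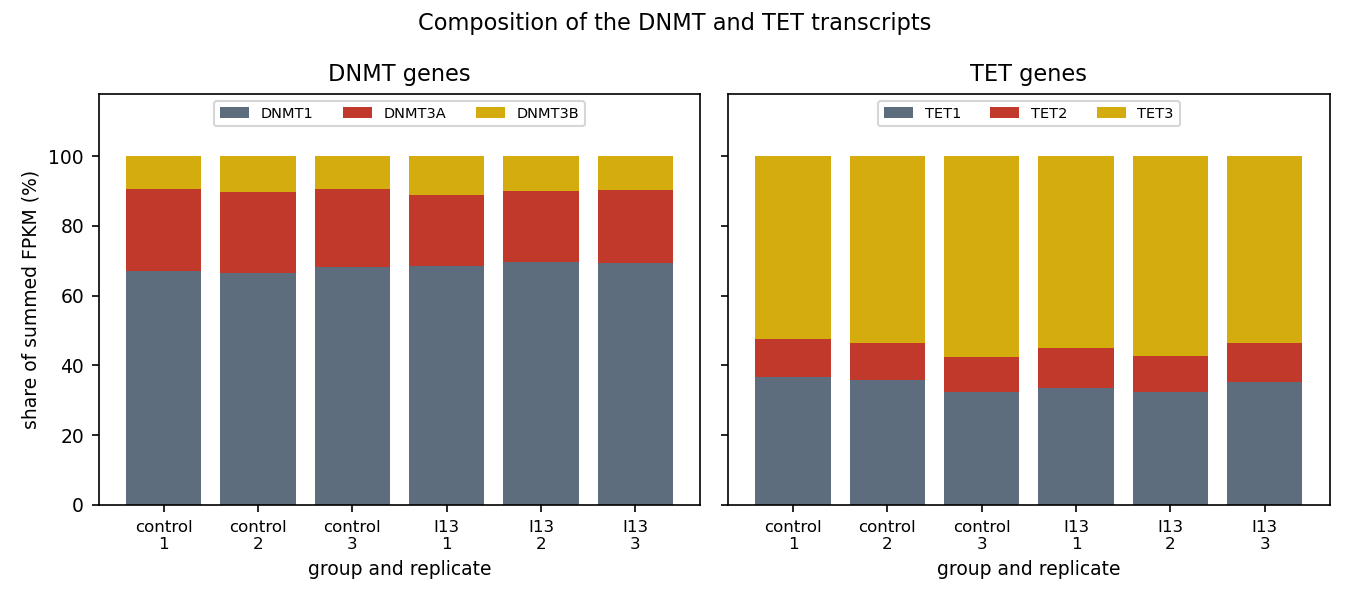
Share of each gene in the summed FPKM of the DNMT genes (left) and the TET genes (right), in percent, 1 stacked bar per library. DNMT3A takes 22.4% to 23.6% in the control and 20.4% to 21.0% in the I13 libraries, while the shares of the TET genes overlap between the groups.

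TET3 (ENSG00000187605, chromosome 2 from 73986404 to 74108176) was the TET gene with the highest level per length and took 54.5% ± 2.74 of the summed TET FPKM in control and 55.3% ± 2.01 in I13 cells (SD, n = 3). Its values were 15.5, 14.9 and 16.0 FPKM in control and 14.4, 14.5 and 15.2 FPKM in I13 replicates 1, 2 and 3. Control 2 and I13 3 made the groups overlap. TET3 differed by a log2 fold change of -0.073 that had a standard error of 0.054 (unadjusted p = 0.219, 95% interval from -0.20 to 0.055).

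TET1 (ENSG00000138336, chromosome 10 from 68560656 to 68694482), which carries a CXXC domain for binding CpG-rich DNA, had 10.8, 9.96 and 8.94 FPKM in control and 8.82, 8.18 and 10.1 FPKM in I13 cells. I13 replicates 1 and 2 were below the control range and replicate 3 was inside it. The log2 fold change of -0.13 had the second largest size among the members, but its standard error was 0.10 (unadjusted p = 0.231, 95% interval from -0.38 to 0.11). It was -0.067 without I13 replicate 2 and -0.069 without control replicate 1, against -0.21 without control replicate 3 and -0.22 without I13 replicate 3. The unadjusted p was 0.0214 (adjusted p = 0.348) when voom held a term for that library pair, a fit in which 10.3% of genes passed the unadjusted and 0.63% the adjusted p, while over all alternatives the adjusted p lay between 0.348 and 1.0.

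TET2 (ENSG00000168769, chromosome 4 from 105145875 to 105279816), which lacks that domain, had 3.25, 3.00 and 2.81 FPKM in control and 2.99, 2.55 and 3.18 FPKM in I13 cells. The groups overlapped broadly, and the log2 fold change of -0.057 had a standard error of 0.12 (unadjusted p = 0.634, 95% interval from -0.33 to 0.21). All 3 TET genes had a log2 fold change below 0, none with an unadjusted p under 0.05. Their summed FPKM was 28.4 ± 1.04 in control and 26.6 ± 1.68 in I13 cells (SD, n = 3, exact permutation p = 0.3). The ratio of the TET sum to the DNMT sum was 0.517 ± 0.0272 and 0.487 ± 0.048 (SD, n = 3, exact permutation p = 0.4).

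TDG (ENSG00000139372, chromosome 12 from 103965804 to 103988874), the glycosylase of the demethylation pathway, had 10.98, 12.86 and 10.34 FPKM in control and 12.6, 10.3 and 11.7 FPKM in I13 cells. For TDG the log2 fold change of 0.019 had a standard error of 0.11 (unadjusted p = 0.864, 95% interval from -0.23 to 0.27). The coefficients of variation of 11.5% and 10.1% in control and I13 cells stood beside a counting error of 3.29%. Its processed copy TDGP1 had between 2 and 8 fragments per library, against 840 to 1082 for TDG. How fragments that match both were counted is not known here.

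IDH2 (ENSG00000182054, chromosome 15 from 90083045 to 90102504) had 144.2, 137.5 and 153.3 FPKM in control and 143.6, 151.2 and 137.4 FPKM in I13 cells. This was the smallest difference of the 10 genes, a log2 fold change of -0.0089 (standard error 0.058, unadjusted p = 0.883, 95% interval from -0.15 to 0.13). IDH1 (ENSG00000138413, chromosome 2 from 208236227 to 208266074) had 10.22, 11.44 and 10.02 FPKM in control and 10.96, 9.93 and 10.20 FPKM in I13 cells. For IDH1 the log2 fold change of -0.026 had a standard error of 0.074 (unadjusted p = 0.737, 95% interval from -0.20 to 0.15). In FPKM, the mRNA of the mitochondrial enzyme thus exceeded that of the cytosolic one by a ratio of 13.8 ± 1.66 in control and 13.9 ± 1.13 in I13 cells (SD, n = 3). The antisense gene IDH1-AS1 shares 94 exon bases with IDH1 on the other strand and had at most 5 fragments in a library.

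For 7 of the 10 members, libraries differed more by a pair made of 1 library from each group than by group. Over the 4133 genes of the principal component analysis, control 3 and I13 2 stood apart from the other 4 libraries on the first principal component, which carried 43.3% of the variance, and no source used here names a batch. Depth was between 15281052 and 17221345 fragments, without a gap between this pair and the rest. DNMT1, UHRF1 and IDH2 had the highest value of both groups in this pair, as did 19% of the 11517 genes with a mean FPKM from 1 up. TET1, TET2, IDH1 and TDG had the lowest value of both groups there, as did 28.9% of those genes. Together these were 7 of 10 members, where 47.9% of those genes behaved in one of these ways. The mean log2 difference of the pair from the other 4 libraries was -0.22 for TDG, -0.21 for TET1, -0.20 for TET2, -0.099 for IDH1, 0.14 for UHRF1, 0.11 for IDH2 and 0.086 for DNMT1. It was between 0.013 and 0.027 for DNMT3A, DNMT3B and TET3.

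Within the 4 libraries the log2 difference of I13 from control for DNMT3A was -0.20, and within the pair it was -0.078. UHRF1 had opposite signs, 0.16 within the 4 libraries and -0.093 within the pair. TET1 had similar values in both, -0.14 and -0.13. TET3 had -0.039 and -0.14, and TET2 -0.018 and -0.13. These differences are given as values and were not tested.

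**Figure D4:**
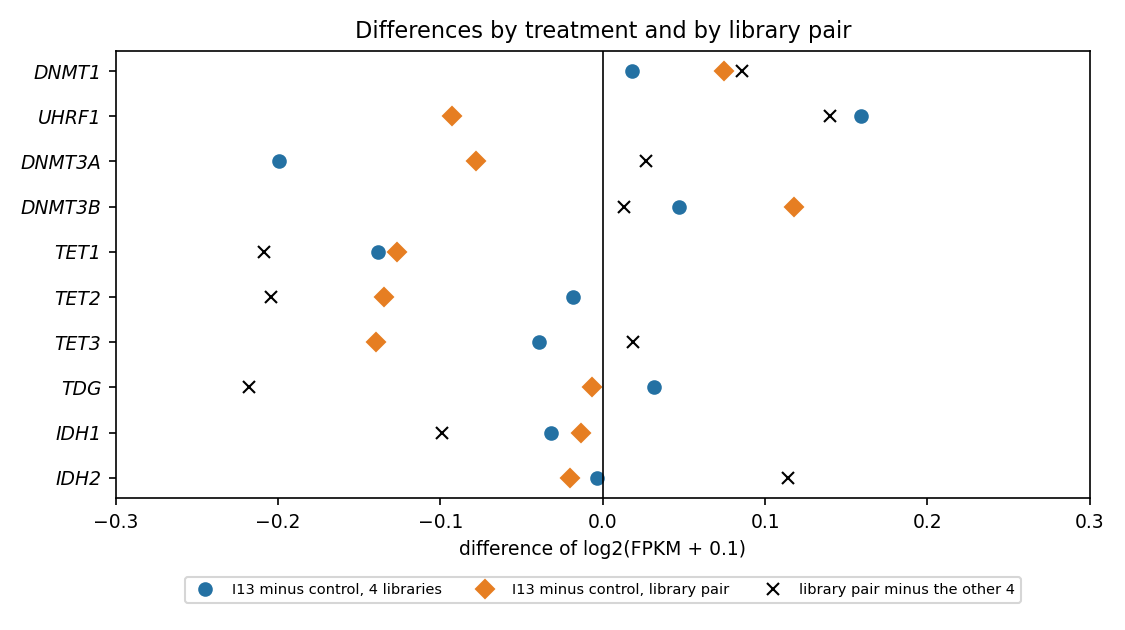
Differences of log2(FPKM + 0.1) for each gene. Circles give I13 minus control within the 4 libraries, diamonds the same within the pair of control 3 and I13 2, and crosses that pair minus the other 4 libraries. TET1, TET2 and TDG lie near -0.2 by library pair. DNMT3A, TET1, TET2, TET3, IDH1 and IDH2 lie below 0 in both sets of libraries.

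Related genes were taken from 8 lists around the pathway, with 112 genes in all, of which 95 were in the table and 84 were tested. By limma, an unadjusted p under 0.05 was found for 3 of the 84, all higher, and an adjusted p under 0.05 for 0. Of all genes tested, 5.14% had such an unadjusted p, 2.55% higher and 2.59% lower. The 2 genes with the highest level in each list are given with these 3. The median log2 fold change over the 84 genes was 0.020, and 81 of the 84 had an absolute log2 fold change under 0.2. By voom, 1 of the 3 genes (NEIL2) kept an unadjusted p under 0.05, while PCNA (0.0697) and MCM3 (0.0694) did not.

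Among the partners of the methyltransferases, 1 of 13 tested genes had an unadjusted p under 0.05 by limma, where 5.14% of all genes tested did. PCNA, the sliding clamp that ties DNMT1 to the replication fork, had 137.6, 143.9 and 148.1 FPKM in control and 161.6, 148.8 and 158.1 FPKM in I13 cells. The I13 values were all above the control values, by less than 1 FPKM between the nearest libraries, control 3 and I13 2. The log2 fold change of 0.12 had a standard error of 0.051 (unadjusted p = 0.0448, adjusted p = 0.947 by limma), and within the pair the difference was 0.0066. By limma its unadjusted p was between 0.0934 and 0.149 when control 1, control 2, I13 1 or I13 3 was left out. TRIM28, the corepressor that recruits silencing to zinc finger binding sites, had 163.7 ± 7.06 FPKM in control and 157.3 ± 12.8 FPKM in I13 cells (SD, n = 3), with a log2 fold change of -0.060.

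S phase replication genes, the class in which E2F-driven genes such as DNMT1 and UHRF1 are usually found, had a log2 fold change above 0 in 11 of 12, against 51.8% of all genes tested. Within the library pair 6 of the 12 were above 0, and within the other 4 libraries 11 were. The median was 0.064, and 1 of the 12 had an unadjusted p under 0.05 by limma, where 5.14% of all genes tested did. MCM3, a subunit of the replicative helicase, had 83.4 ± 3.55 FPKM in control and 90.5 ± 3.06 FPKM in I13 cells (SD, n = 3), and its groups overlapped. In log2 terms the difference was 0.12 ± 0.050 (standard error, unadjusted p = 0.0487, adjusted p = 0.947 by limma). Its unadjusted p by limma lay between 0.103 and 0.154 when control 1, control 2, I13 1 or I13 2 was left out. MCM7, another subunit, had means of 137.1 FPKM in control and 137.4 FPKM in I13 cells.

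Of the 13 base excision repair and GADD45 genes tested, 1 had an unadjusted p under 0.05 by limma, where 5.14% of all genes tested did. The log2 fold change was above 0 for 4 of the 13 and below 0 for 9. The groups did not overlap for 1 gene higher and 2 genes lower in I13 cells, against 4.88% and 4.64% of all genes tested. NEIL2, a glycosylase that can act after TDG, had 3.52, 3.76 and 3.53 FPKM in control and 3.90, 4.42 and 4.82 FPKM in I13 cells, from 197 to 248 fragments per library. All 3 I13 libraries were above the control libraries, by 0.27 on the log2 scale (standard error 0.099, unadjusted p = 0.0292, adjusted p = 0.947). With control 1, control 3, I13 2 or I13 3 left out, limma gave it an unadjusted p between 0.0644 and 0.0984. APEX1, the abasic site endonuclease, had 277.2 ± 4.66 and 262.3 ± 4.03 FPKM (SD, n = 3), with a log2 fold change of -0.080. All its I13 values were below all its control values. PARP1, the DNA break sensor, had 51.3 ± 1.64 and 51.2 ± 1.39 FPKM (SD, n = 3).

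The other lists held 0 genes with an unadjusted p under 0.05 by limma. By voom they held 1, where 5.36% of all genes in that fit passed, 2.56% higher. This was the TET2 regulator CXXC5, which was picked out after its values had been seen. Its log2 fold change was 0.22 (unadjusted p = 0.0288, adjusted p = 0.811 by voom). Among 9 methyl-CpG readers the median log2 fold change was -0.040, and MBD4, which joins a methyl-CpG domain to a glycosylase, and MBD1 were the most expressed, with log2 fold changes of -0.067 and -0.040. The 6 TET partners had a median of 0.032, with HCFC1 at -0.0013 and DDB1 at -0.023. The 15 genes of 2-oxoglutarate metabolism had a median of 0.018, led in level by the mitochondrial enzymes GLUD1 (0.028) and CS (-0.0095). The 14 genes of the S-adenosylmethionine and folate cycle, which supply the methyl group, had a median of 0.030. MAT2A, which makes S-adenosylmethionine, had a log2 fold change of 0.11 (standard error 0.082), and AHCY, which clears the product of methylation, had 0.072 (standard error 0.061).

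**Figure D5:**
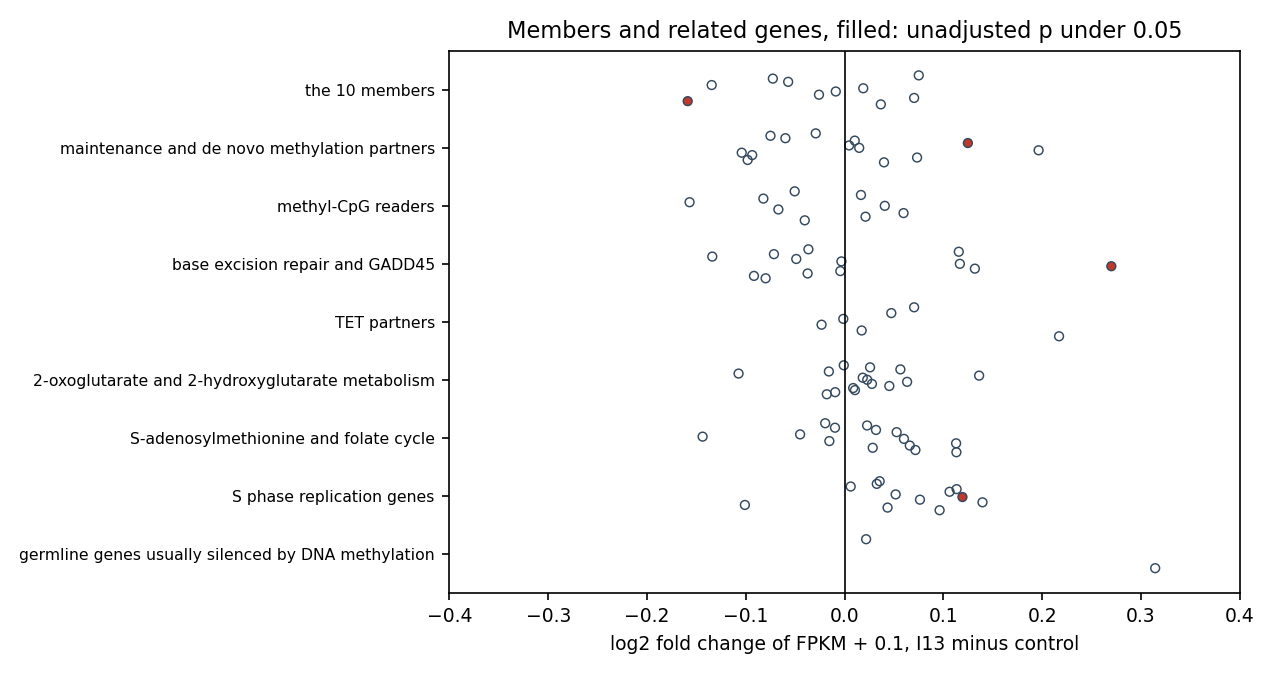
Log2 fold change of FPKM + 0.1 (I13 minus control) for the 10 members and the tested genes of 8 related lists, 1 point per gene, offset within a row only to separate the points. Filled points have an unadjusted p under 0.05, which are DNMT3A among the members and PCNA, NEIL2 and MCM3 among the related genes.

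Germline genes are the readout usually looked at when DNA methylation is lost, since CpG-rich germline promoters stay methylated in most somatic cells. Of 24 such genes listed, 8 were in the table and 2 reached the minimum level. SYCP3, a protein of the meiotic chromosome axis, had 0.423 ± 0.165 FPKM in control and 0.414 ± 0.0694 FPKM in I13 cells (SD, n = 3). SOHLH2, a germ cell transcription factor, had 0.127 ± 0.0876 and 0.174 ± 0.0673 FPKM (SD, n = 3), from 3 to 13 fragments per library. The 6 untested genes, PRAME, DDX4, TDRD9, BOLL, PIWIL2 and TUBA3C, had at most 8 fragments in any control library and at most 8 in any I13 library. Differences within so few fragments were not detectable at this depth.

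Markers of the cell type were measured as a check of the labels. The 7 myeloblast markers of Kasumi-1 (KIT, CD34, CD33, MPO, RUNX1T1, ELANE and ANPEP) were all expressed and summed to between 12900 and 15400 FPKM, most of it from the granule genes MPO and ELANE. By limma 2 of them had an unadjusted p under 0.05 and no overlap between groups. Of all genes tested, 5.14% had such a p and 9.52% had no overlap. ANPEP had 24.0 FPKM in control and 30.6 FPKM in I13 cells (log2 fold change 0.35, unadjusted p = 0.00184, adjusted p = 0.54), and CD33 had 11.5 and 13.2 FPKM (0.20, unadjusted p = 0.0166, adjusted p = 0.89). MPO had 11943 and 11027 FPKM (-0.12, unadjusted p = 0.242). The part of these markers in the results above was not tested. Of other cell types, the T cell, erythroid and fibroblast markers in the table had at most 6 fragments in any library, and the collagen genes COL1A1 and COL1A2 were listed at 0. Of the 2 epithelial markers in the table, EPCAM had 23.8 FPKM in control and 23.9 FPKM in I13 cells, while KRT8 had at most 2 fragments.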

How the data were processed

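The study measured mRNA of Kasumi-1 cells by sequencing of TruSeq Stranded mRNA libraries, 3 of control cells and 3 of I13-treated cells, grouped by the sample labels. The authors deposited FPKM values per Ensembl gene, which were used as deposited. The submitters' processing notes name Trimmomatic, HISAT2, HTSeq and Cufflinks and the build hg38. For the annotation and strand setting, the sources used here name nothing. Symbols, coordinates and exon lengths came from GENCODE release 29 (GRCh38), which named 32244 identifiers. With these lengths 25773 of 27002 genes above 0 (95.4%) gave whole fragments in all 6 libraries within 0.01, all 10 members included. For 1322 more, the smallest shared step between values gave the fragments. Depth was 16566742 to 17221345 fragments in control and 15281052 to 16682550 in I13 libraries. Replicates differed by more than counting noise (chi-square per gene 3.07 to 8.26).

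All genes whose mean FPKM was 0.1 or more were tested, two-sided, on log2(FPKM + 0.1) in R 4.3.3 with limma 3.58.1 (variance trend, no block), with Benjamini-Hochberg adjustment over all genes tested. Voom on recovered fragments used genes with a mean of at least 10. Scripts were tested on simulated data. The members, lists and alternatives were chosen with earlier results of these data known, and a voom fit with the library pair as a term was added after the values had been seen. Named genes are all members, list genes with an unadjusted p under 0.05 and the 2 most expressed of each list. The lists were written from general knowledge. Promoter windows are RefSeq's on GRCh38.p14.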

Additional observations from a re-analysis of the deposited data

How the results depend on the processing

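No member had an adjusted p under 0.05 in any of the 18 alternatives, and 163 of 180 member values kept their direction and their side of the unadjusted p of 0.05. Only analyses with 1 library left out turned a direction. These were DNMT1 without I13 replicate 2 (-0.0014, range with a library left out up to 0.057), TET2 without I13 replicate 2 (0.031, range from -0.12), IDH1 without control replicate 2 (0.033, range from -0.067) or I13 replicate 2 (0.0042), IDH2 without control replicate 3 (0.032, range from -0.046) or I13 replicate 3 (0.025), and TDG without control replicate 1 (-0.0046, range from -0.047 to 0.11), control replicate 3 (-0.047) or I13 replicate 1 (-0.046). The turned values were under 0.05 in size, and the cause was not tested.

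The 445 genes with an unadjusted p under 0.05 and a log2 fold change of 0.58 or more in size became 134 with a pseudocount of 1, 119 with a minimum mean FPKM of 1, 204 by voom and 203 when voom held the library pair as a term. With the adjusted p in its place, 0 genes became 9 without a variance trend, 4 by voom and 15 by voom with the pair term, and 0 to 2 with a library left out. Members with an unadjusted p under 0.05 numbered 0 without a trend and 2 (DNMT3A and TET1) by voom with the pair term, where 10.3% of genes passed. With a library left out they numbered 0 to 2 (2, DNMT3A and UHRF1, without control replicate 3, where 6.27% of genes passed). Related genes at that p numbered 1 under median scaling, 1 without a trend, 13 with the pair term (where 7.62% of all genes passed) and 16 by voom with the pair term (10.3%). With a library left out they numbered 1 to 7 (7 without control replicate 3, where 6.27% passed). Members without overlap numbered 1 to 4 with a library left out (2 without control replicate 2, 3 without control replicate 3 and 4 without I13 replicate 3), where 17%, 22.3% and 18.4% of all genes tested had no overlap. With the replicate number as a block, 0 members and 1 related gene had an unadjusted p under 0.05, and DNMT3A had 0.0582. Whether the numbers pair the samples is not stated. Deviations of same-numbered libraries from their group means correlated at 0.32, -0.379 and -0.297 over 4133 genes. Those of control 3 and I13 2 correlated at 0.514. This shared difference enters the group means and so each of these values, which therefore cannot settle the pairing. Depth limits DNMT3B most among the members, with 360 to 448 fragments.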
